A study of Mus musculus with 8 samples.

Results

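The genes of the ciliary neurotrophic factor (CNTF) receptor and of the gp130 receptor chains it shares with other cytokines were followed in mouse gastrocnemius, a mixed calf muscle. The group consists of 8 genes: Cntf and Cntfr, the other alpha chain gene Il6ra, the signalling chain genes Il6st, Lifr and Osmr, and Stat3 and Socs3 downstream. A gene was represented by its brightest transcript cluster, the array's unit for 1 gene, among clusters annotated to that symbol alone. This left 7 of the 8 genes, out of 19938 genes measured in the same way. Cntf itself had no such cluster, because the cluster that names it is also annotated to Gm44505 and Zfp91. Cntfr was chosen by its own array values, being higher in knockout than in wild-type muscle, so they are given as a description and carry no test, while the remaining 6 genes were tested.

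Muscle of 4 knockout animals (Gcn5skm-/-, HSAcre Tg/0 with Gcn5 L2/L2) was compared with muscle of 4 wild-type animals (Gcn5skm+/+, HSAcre 0/0 with Gcn5 L2/L2), with 1 Affymetrix array per animal. Gcn5, encoded by Kat2a, is a histone acetyltransferase. Both groups carried the L2 alleles of Gcn5. HSAcre, the human skeletal actin promoter driving Cre, acts in muscle fibres, was present in knockouts only, and leaves Gcn5 intact in other cells of the tissue, so effects of the transgene and of the deletion cannot be told apart. All animals were male, 6 months old, chow-fed and fasted for 5 h. The values are log2 expression from the authors' RMA normalization, and the number of arrays limits their precision.

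CNTF is a cytokine of the interleukin-6 family that Schwann cells of peripheral nerve make. It binds the alpha chain encoded by Cntfr, which is anchored in the membrane by a lipid and has no signalling domain of its own. The bound pair then engages gp130, the product of Il6st, and the LIF receptor chain, the product of Lifr, whose JAK kinases phosphorylate STAT3, and STAT3 induces its own feedback inhibitor Socs3. In rat muscle Cntfr transcript is known to increase after denervation.

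Promoter sequence is shown for the gene that leads the group, Cntfr, and for Socs3, the classic STAT3 target. Windows of 300 bases around annotated transcript starts were taken from RefSeq on GRCm38.p6, in which all 8 genes were matched and had 14 starts, 6 of them in Cntfr. Capitals mark the palindromic STAT motif TTCNNNGAA, the E-box CAGCTG bound by muscle regulatory factors, and the core motif CCATNTT of the zinc-finger factor YY1, searched on both strands. The first Cntfr window is 78.7% G and C and holds none of the 3 motifs.
Cntfr, start 1, chr4:41695404-41695703, minus strand: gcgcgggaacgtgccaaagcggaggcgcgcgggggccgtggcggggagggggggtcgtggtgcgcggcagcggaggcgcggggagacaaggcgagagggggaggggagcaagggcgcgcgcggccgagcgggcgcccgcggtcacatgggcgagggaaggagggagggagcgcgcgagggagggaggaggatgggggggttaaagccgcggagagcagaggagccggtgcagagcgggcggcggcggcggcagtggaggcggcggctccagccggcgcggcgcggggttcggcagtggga
Cntfr, start 6, chr4:41689131-41689430, minus strand: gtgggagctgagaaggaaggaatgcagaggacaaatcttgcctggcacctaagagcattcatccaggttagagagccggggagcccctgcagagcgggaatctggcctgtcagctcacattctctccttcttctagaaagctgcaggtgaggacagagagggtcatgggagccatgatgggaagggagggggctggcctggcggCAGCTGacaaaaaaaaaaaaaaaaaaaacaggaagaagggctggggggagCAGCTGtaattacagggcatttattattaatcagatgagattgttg
Socs3, start 1, chr11:117969317-117969616, minus strand: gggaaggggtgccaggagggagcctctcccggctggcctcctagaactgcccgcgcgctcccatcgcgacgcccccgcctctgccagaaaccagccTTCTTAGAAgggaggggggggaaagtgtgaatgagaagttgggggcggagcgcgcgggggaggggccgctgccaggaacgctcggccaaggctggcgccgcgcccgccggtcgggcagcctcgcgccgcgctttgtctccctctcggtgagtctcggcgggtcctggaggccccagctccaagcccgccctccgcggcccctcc
The downstream Cntfr start, at 51.3% G and C, holds 2 E-boxes, 1 of which begins 46 bases before the start. Of the 6 Cntfr windows only this 1 held an E-box, and 0 held the STAT motif or the YY1 core. Several of the other Cntfr windows overlap, so the windows are not all separate sequences. The Socs3 window holds 1 STAT motif, which begins 154 bases before the start. Of the 14 windows of the group, 1 held the STAT motif, 3 held the E-box and 1 held the YY1 core. Among all 32851 windows of this length the shares were 8.3%, 16.3% and 16.1%. A match is a string of letters and not a measured binding site, and the array values do not say which start was used.

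Kat2a measured 5.81, 5.84, 5.79 and 5.73 in knockouts 1 to 4, against 6.50, 6.46, 6.45 and 6.43 in wild types 1 to 4 (difference -0.66, limma adjusted p = 0.0319), and each knockout lay below each wild type. That call was lost without any 1 of knockouts 1 to 4 or without wild type 3 or 4 (limma adjusted p from 0.0619 to 0.137). With any 1 array left out the difference lay between -0.68 and -0.64. In all, 3 of 19938 genes, or 0.015%, passed an adjusted p of 0.05, and that count was between 0 and 5 when single arrays were left out. The count was 0 without any 1 of the knockouts or without wild type 3 or 4, and 5 without wild type 1. Wild type 2 stood apart from the other arrays, at 32.2 on a first principal component with 29.8% of the variance. As a check of the tissue, 10 muscle fibre genes (5 above 0 and 5 below, median difference -0.00144) had a mean between 11.68 and 11.97 in knockouts and between 11.85 and 11.96 in wild types, near the top of the array's range of 13.2.

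Cntfr, the CNTF-binding alpha chain, measured 6.89, 7.02, 6.88 and 6.97 in knockouts 1 to 4, against 6.57, 6.24, 6.49 and 6.39 in wild types 1 to 4. Every knockout lay above every wild type, and the lowest knockout stood 0.31 above the highest wild type. The mean was 6.94 ± 0.06 in knockout and 6.42 ± 0.14 in wild-type muscle (log2, SD, n = 4 each). The difference of 0.52 (SE 0.09) is a 1.43-fold higher level in knockout. Knockouts spread over 0.13 log2 units and wild types over 0.33.

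Il6ra, the alpha chain that binds interleukin-6, measured 5.78, 5.80, 5.87 and 5.69 in knockouts 1 to 4, against 6.18, 6.04, 5.89 and 5.88 in wild types 1 to 4. All knockouts lay below all wild types, but the highest knockout and the lowest wild type were only 0.00908 apart. The means were 5.78 ± 0.07 in knockout and 6.00 ± 0.14 in wild-type muscle (SD, n = 4 each). The difference of -0.21 (SE 0.09, 95% interval -0.42 to -0.01) missed the threshold (limma adjusted p = 0.861 over all genes). After cyclic loess normalization the groups overlapped. Of the 7 genes, 1 lay higher without overlap, Cntfr, and 1 lay lower without overlap, Il6ra, while over all genes 3.62% separated the groups, 1.48% with knockouts higher and 2.14% with knockouts lower. The higher one was picked for this, so nothing is read from its count.

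**Figure D1:**
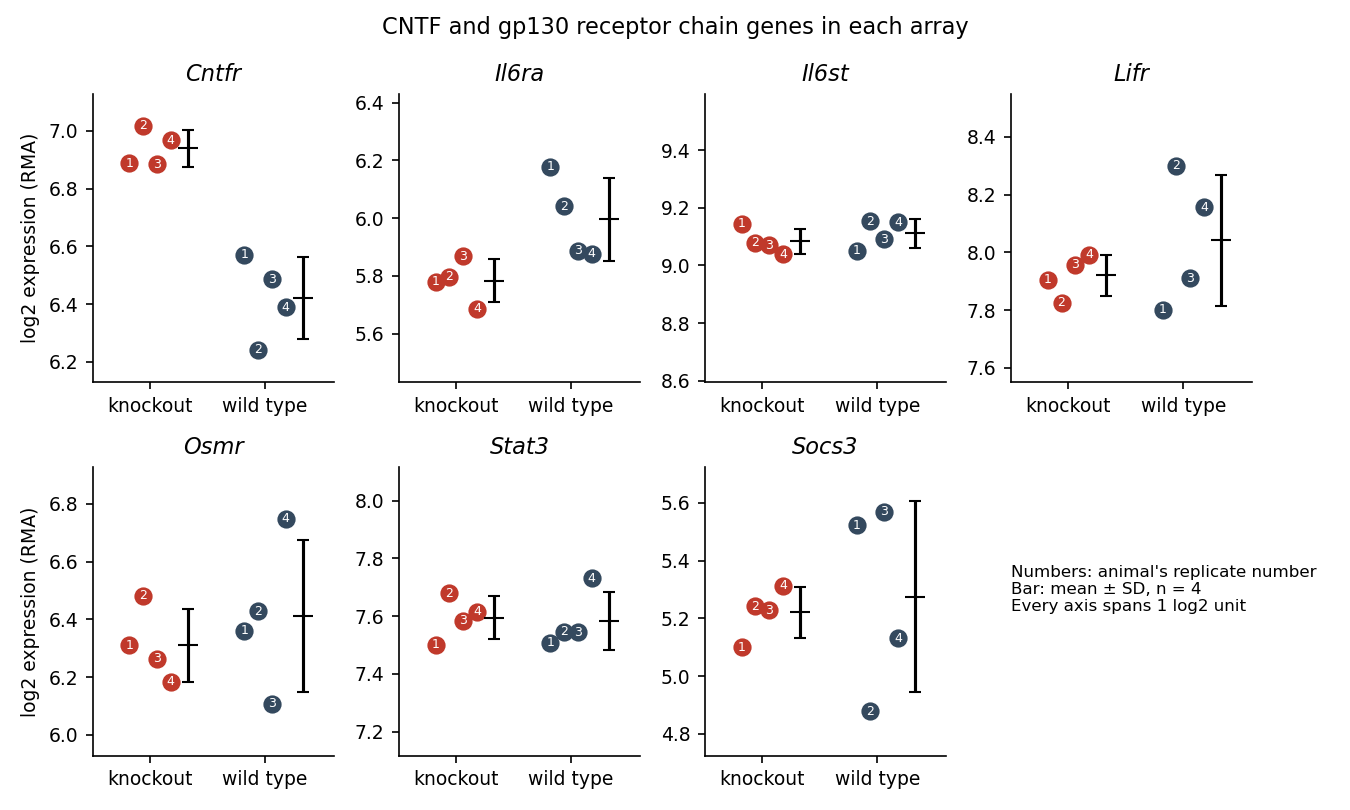
Log2 expression (vertical axes, each spanning 1 log2 unit) of 7 receptor and signalling genes in 4 knockout arrays (red, left) and 4 wild-type arrays (dark, right); each point is 1 animal with its replicate number, and bars are mean ± SD. Cntfr lies between 6.88 and 7.02 in knockouts and between 6.24 and 6.57 in wild types, Il6ra separates the groups by 0.00908, and the groups overlap for the other 5 genes.

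The groups overlapped for all 3 signalling chains. Il6st, which encodes gp130, a chain shared by many cytokines of the family, measured 9.14, 9.08, 9.07 and 9.04 in knockouts 1 to 4, against 9.05, 9.15, 9.09 and 9.15 in wild types 1 to 4. The values of both groups interleave within about the same narrow range, 0.11 log2 units in knockouts and 0.10 in wild types. The difference of -0.03 (SE 0.08, limma adjusted p = 0.977) had a 95% interval from -0.20 to 0.14.

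Lifr, the chain that pairs with gp130 for both LIF and CNTF, measured 7.90, 7.83, 7.96 and 7.99 in knockouts 1 to 4, against 7.80, 8.30, 7.91 and 8.16 in wild types 1 to 4. Wild types 2 and 4 were the high values, and wild type 1 was the lowest of all 8 arrays. The difference was -0.12 (SE 0.11, 95% interval -0.37 to 0.12, limma adjusted p = 0.914), and it was -0.04 without wild type 2. Osmr, the partner of gp130 for oncostatin M, measured 6.31, 6.48, 6.26 and 6.18 in knockouts 1 to 4, against 6.36, 6.43, 6.11 and 6.75 in wild types 1 to 4. Wild type 4 was the highest array and wild type 3 the lowest, so the knockouts lay inside the wild-type range. The difference was -0.10 (SE 0.13, 95% interval -0.38 to 0.17, limma adjusted p = 0.935), and without wild type 4 it was 0.01.

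Stat3, the transcription factor that the receptor activates by phosphorylation, measured 7.50, 7.68, 7.58 and 7.62 in knockouts 1 to 4, against 7.51, 7.55, 7.54 and 7.73 in wild types 1 to 4. The groups covered nearly the same range, with means of 7.60 ± 0.07 in knockout and 7.58 ± 0.10 in wild-type muscle (SD, n = 4 each). The difference of 0.01 (SE 0.09, limma adjusted p = 0.987) had a 95% interval from -0.18 to 0.20. Transcript level does not report phosphorylation of STAT3, which was not measured.

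Socs3, the STAT3-induced inhibitor that binds gp130, measured 5.10, 5.24, 5.23 and 5.31 in knockouts 1 to 4, against 5.52, 4.88, 5.57 and 5.13 in wild types 1 to 4. The wild types were the more spread group, 0.69 log2 units against 0.21 in knockouts, with wild types 1 and 3 above and wild type 2 below all knockouts. The difference was -0.05 (SE 0.14, 95% interval -0.36 to 0.25, limma adjusted p = 0.971). It was 0.03 without wild type 1, 0.04 without wild type 3 and -0.19 without wild type 2. A dimmer cluster of Socs3 averaged 4.19 ± 0.11 in knockout and 4.35 ± 0.10 in wild-type muscle (SD, n = 4 each), a difference of -0.16. Of the 6 genes tested, 0 passed the limma adjusted threshold, 5 had a difference below 0, and 1 (Il6ra) had an unadjusted p under 0.05, a level that 5.73% of all genes reached.

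The cluster annotated to Gm44505, Zfp91 and Cntf measured 6.24, 6.17, 6.17 and 6.07 in knockouts 1 to 4, against 6.22, 6.28, 6.26 and 6.31 in wild types 1 to 4. Knockout 1 lay within the wild-type range and the other knockouts lay below it, with a difference of means of -0.10. Zfp91 encodes a zinc-finger protein and lies next to Cntf, so the value cannot be assigned to the ligand. Schwann cell markers, whose cells are the source of CNTF, were lower in 10 of 13 measured cases with a median difference of -0.20, against -0.01 over all genes. Their mean lay between 5.01 and 5.41 in knockouts and between 4.89 and 5.83 in wild types, so the groups overlapped. The other 3 listed markers were not analysed here.

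**Figure D2:**
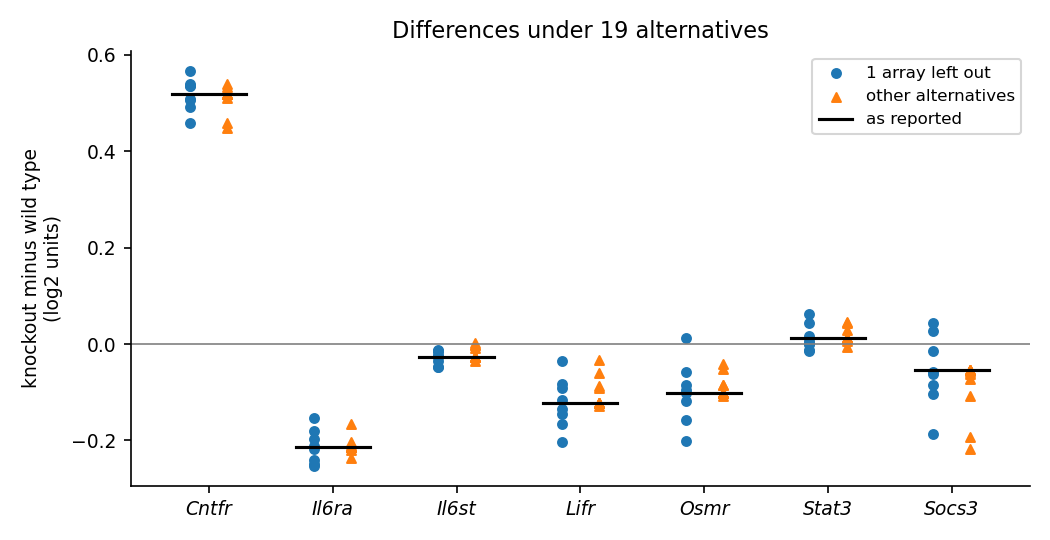
Knockout minus wild-type difference in log2 units (vertical axis) of 7 genes, as reported (black line), with 1 array left out (8 blue points) and under 11 other alternatives (orange triangles). The triangles include the fit without wild type 2 and knockout 4. Cntfr lies between 0.45 and 0.57 and Il6ra between -0.25 and -0.15, while the points of Il6st, Osmr, Stat3 and Socs3 lie on both sides of 0.

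The rest of the pathway was described with 6 lists of other ligands, other receptor chains, JAK and STAT genes, feedback inhibitors, proteases and a glypican, and known STAT3 target genes. Of 66 measured genes 0 passed the limma adjusted threshold, 28 had a difference above 0 and 38 below, and the median difference was -0.04, beside -0.01 over all 19938 genes, 45.3% of which lay above 0. Before adjustment 8 genes (12.1%) had a limma p under 0.05, against 5.73% of all genes, and 6 of these 8 were STAT3 targets. The lists were chosen with earlier results of these data known, so nothing is read from that share. The other 4 listed genes were not analysed here.

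Of 10 measured genes for other ligands 4 lay above 0 and 6 below (median -0.04), and 0 reached an unadjusted p of 0.05. Ctf1, which encodes cardiotrophin-1, averaged 6.20 ± 0.09 in knockout and 6.36 ± 0.13 in wild-type muscle (SD, n = 4 each, difference -0.16, limma adjusted p = 0.876). Osm, which encodes the macrophage cytokine oncostatin M, averaged 3.59 ± 0.04 in knockout and 3.73 ± 0.15 in wild type, a difference of -0.14. The T-cell cytokine gene Il31 averaged 4.26 ± 0.08 in knockout and 4.45 ± 0.16 in wild type, a difference of -0.20, and neither passed (limma adjusted p of 0.876 and 0.869). Il11 differed by 0.09, and by -0.01 without wild type 2. Without wild type 2 the median of the ligand list was -0.11. Il6 averaged 1.92 in knockout and 1.85 in wild-type muscle, near the lowest value on the arrays, 0.754.

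Of the 4 other receptor chains measured 1 lay above 0 and 3 below, with a median of -0.11. Csf3r, the granulocyte colony-stimulating factor receptor, differed by -0.20, Il27ra by -0.13, Il31ra by -0.10 and Lepr, the leptin receptor, by 0.10, and their limma adjusted p values lay between 0.880 and 0.931. In knockout and wild-type muscle Csf3r averaged 3.63 and 3.82, Il31ra 2.81 and 2.90, and Lepr 3.93 and 3.83. These levels are dim, below the median of each array. Csf3r differed by -0.36 without wild type 2 and by -0.11 without wild type 3. Il27ra ranged from -0.21 to -0.08, Il31ra from -0.13 to -0.06 and Lepr from 0.02 to 0.17 when single arrays were left out. The 3 genes of the list of proteases and glypican all lay below 0 (median -0.10). Adam10 and Adam17, which release the outer part of the interleukin-6 receptor from the cell, differed by -0.10 and -0.07, and Gpc1, a glypican that is lipid-anchored like the Cntfr product, differed by -0.13 (limma adjusted p from 0.881 to 0.939). With single arrays left out Adam17 ranged from -0.13 to -0.02 and Gpc1 from -0.20 to -0.08.

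Among JAK and STAT genes 1 of 6 lay above 0 and 5 below, with a median of -0.09. Jak2, a kinase bound to the signalling chains, measured 7.01, 6.86, 6.69 and 6.79 in knockouts 1 to 4, against 7.24, 7.60, 6.80 and 7.15 in wild types 1 to 4. Wild type 3 lay among the knockouts and the other wild types lay above them. The difference of -0.36 (SE 0.15, limma adjusted p = 0.861) was -0.22 without wild type 2. Jak1 differed by -0.04, Tyk2 by -0.14 and Stat5b, the STAT of the growth hormone receptor, by -0.19. Without wild type 4 Tyk2 differed by -0.07. Jak1 changed sign without knockout 3 (0.03) or wild type 2 (0.02).

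Feedback genes lay above 0 in 4 of 13 cases and below in 9, with a median of -0.09. That median was 0.01 without wild type 2 and -0.15 without wild type 1. Pias3, an inhibitor of STAT3 in the nucleus, averaged 5.34 ± 0.10 in knockout and 5.58 ± 0.18 in wild-type muscle (SD, n = 4 each, difference -0.25, limma adjusted p = 0.861). Knockout 2, at 5.49, lay apart from the other knockouts, the nearest of which was at 5.30. Cish, a STAT5-induced inhibitor, was the most variable gene named. It measured 6.19, 4.95, 7.17 and 5.19 in knockouts 1 to 4, against 4.85, 5.16, 5.32 and 6.32 in wild types 1 to 4. High and low values occurred in both groups, and the difference of 0.46 had a 95% interval from -0.46 to 1.39. Cish differed by 0.03 without knockout 3 and by 0.77 without knockout 2. Socs2, a feedback inhibitor of growth hormone signalling, differed by -0.22, and by -0.43 without wild type 1, -0.07 without wild type 2 and -0.08 without wild type 4. Socs7 differed by -0.14, and by -0.03 without wild type 2.

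The STAT3 target list had 18 of 30 genes above 0 and 12 below (median 0.02, and -0.02 without knockout 3), and the 6 genes with an unadjusted p under 0.05 went both ways. Lower in knockouts were Bcl6, Fos, Klf4 and Pim1, and higher were Irf1 and Myc, none past the limma adjusted threshold. Klf4 and Pim1 are named here after their values were seen. Bcl6, a transcriptional repressor, measured 8.003, 7.32, 7.61 and 7.65 in knockouts 1 to 4, against 8.19, 8.55, 7.94 and 8.46 in wild types 1 to 4. Only knockout 1 reached into the wild-type range (difference -0.64, SE 0.16, limma adjusted p = 0.448).

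Fos, a subunit of AP-1, measured 4.42, 4.38, 4.51 and 4.25 in knockouts 1 to 4, against 4.58, 4.66, 4.81 and 5.01 in wild types 1 to 4, without overlap (difference -0.38, limma adjusted p = 0.655). Irf1, an interferon regulatory factor, measured 5.46, 5.46, 5.58 and 5.45 in knockouts 1 to 4, against 5.33, 4.95, 5.32 and 5.06 in wild types 1 to 4. All knockouts were higher (difference 0.32, limma adjusted p = 0.780), but a second cluster of Irf1 differed by -0.04. Myc, a growth regulator, averaged 5.79 ± 0.15 in knockout and 5.32 ± 0.35 in wild-type muscle (SD, n = 4 each, difference 0.47, limma adjusted p = 0.802), with 1 wild type, at 5.69, inside the knockout range.

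**Figure D3:**
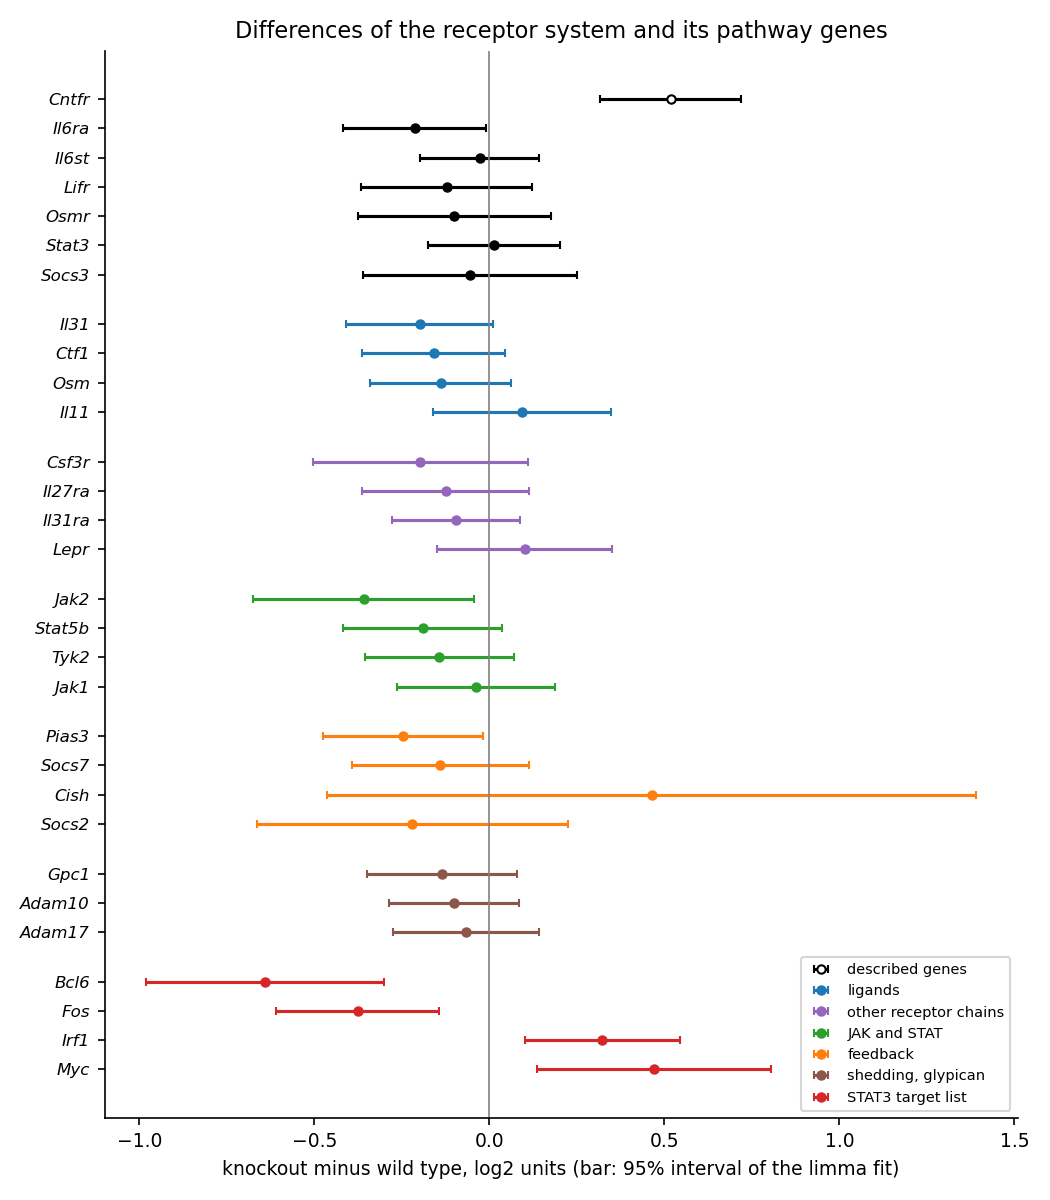
Knockout minus wild-type differences in log2 units (horizontal axis) with 95% intervals of the limma fit, for the receptor genes (black, Cntfr open because it was chosen for its rise) and for up to 4 genes of each pathway list (colours, by smallest unadjusted p). Bcl6 at -0.64 and Fos at -0.38 lie below 0 and Myc at 0.47 and Irf1 at 0.32 above it, while Cish has the widest interval, from -0.46 to 1.39.

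Markers of other cells were set beside Cntfr and Il6ra. These marker lists too were chosen with earlier results of these data known, so nothing is read from their counts. Macrophage markers lay above 0 in 16 of 18 cases (median 0.22), beside 45.3% of all genes. Differences of single markers ranged from -0.11 to 1.29. The list mean was 5.59, 5.52, 5.74 and 6.08 in knockouts 1 to 4, against 5.34, 5.42, 5.48 and 5.39 in wild types 1 to 4. It separated the groups only narrowly, with 5.52 in knockout 2 and 5.48 in wild type 3. The knockout range of the macrophage mean was 0.56 log2 units, with knockout 4 the highest. The 18 macrophage markers had gene means between 3.52 and 8.20, the lowest below the median of each array, and no detection call was used. The part of macrophages in the Cntfr and Il6ra differences was not tested. In whole muscle, a change in the number of cells of a type and a change in RNA per cell cannot be told apart.

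Satellite cell and regeneration genes lay above 0 in 7 of 11 cases (median 0.03), with means from 5.77 to 5.97 in knockouts and from 5.62 to 5.82 in wild types. In this list Actc1, the cardiac actin gene that immature and regenerating muscle fibres also express, stood apart from that median and is named after its values were seen. It measured 9.90, 9.35, 10.25 and 11.27 in knockouts 1 to 4, against 7.55, 8.75, 9.01 and 8.33 in wild types 1 to 4. Every knockout lay above every wild type, with a difference of 1.79 (SE 0.37) that missed the threshold (limma adjusted p = 0.258), and its part in the Cntfr difference was not tested. Denervation and junction genes, of interest because of the known effect of denervation on Cntfr, lay above 0 in 6 of 14 cases (median -0.06), from 6.12 to 6.27 in knockouts and from 6.09 to 6.41 in wild types. Chrna1, the acetylcholine receptor alpha subunit, differed by 0.16 and Musk, the kinase of the junction, by -0.75 (limma adjusted p of 0.876 and 0.538). Gadd45a, also in this list and named after its values were seen, differed by 0.37 (limma adjusted p = 0.861). The part of denervation in the Cntfr difference was not tested. Slow-fibre genes lay above 0 in 7 of 8 cases (median 0.42), and their mean ranged from 5.51 to 9.06 in knockouts and from 6.33 to 8.37 in wild types. Knockouts 3 and 4 were at the 2 ends of the knockout range. The part of slow fibres in the Cntfr difference was not tested.

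Endothelial genes (3 of 10 above 0, median -0.04), fibroblast and progenitor genes (5 of 9, median 0.02), and neutrophil and lymphocyte genes (3 of 8, median -0.03) had means that overlapped between groups. The endothelial mean lay from 6.96 to 7.45 in knockouts and from 7.04 to 7.40 in wild types. The fibroblast mean lay from 7.01 to 7.30 in knockouts and from 7.15 to 7.35 in wild types. The neutrophil and lymphocyte mean lay from 3.22 to 3.33 in knockouts and from 3.21 to 3.40 in wild types.

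**Figure D4:**
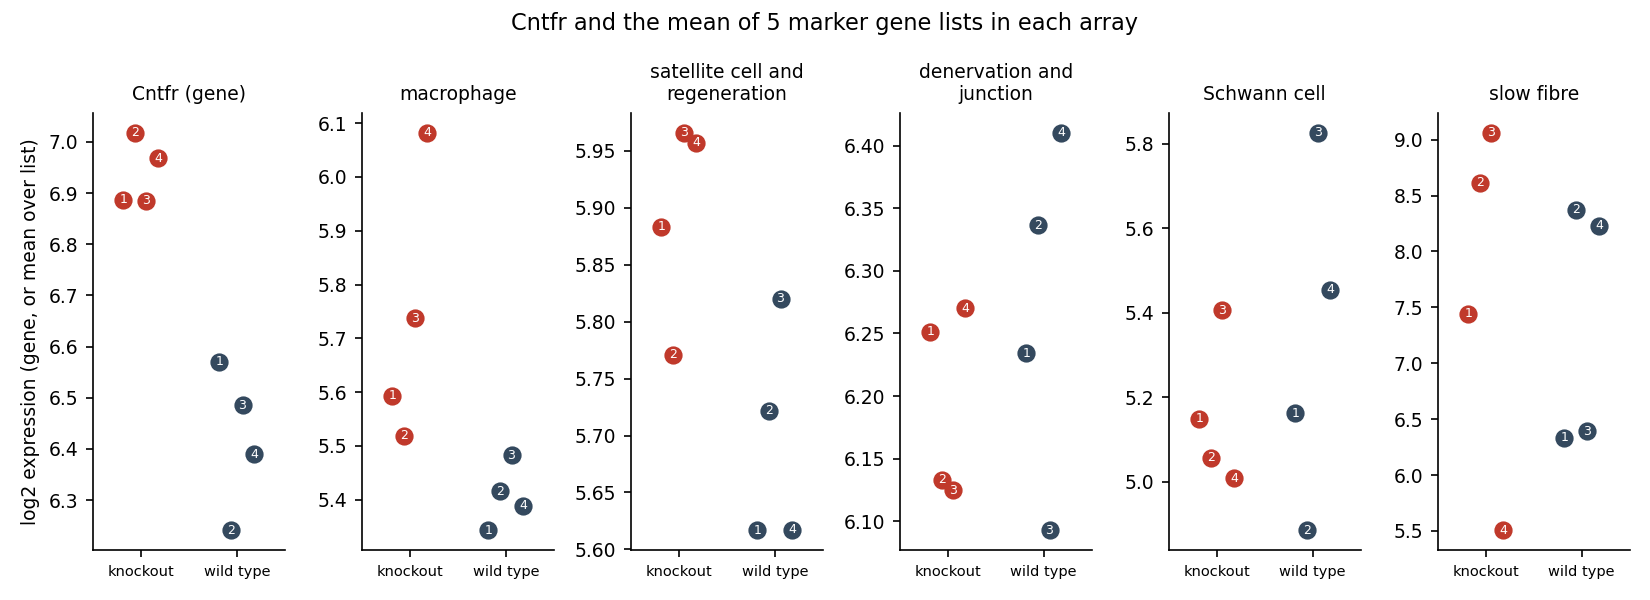
Log2 expression of Cntfr and the mean over 5 marker lists (vertical axes, each with its own scale) in 4 knockout (red, left) and 4 wild-type arrays (dark, right), with replicate numbers. Cntfr and the macrophage mean separate the groups, with macrophage means from 5.52 to 6.08 in knockouts and 5.34 to 5.48 in wild types, while the other 4 lists overlap.

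The genes whose pattern over the 8 arrays was most like that of Cntfr were taken by the smallest root mean square difference after each gene was centred on its own mean. They were Rps19, a protein of the small ribosomal subunit (0.0959 log2 units), Mageh1 (0.0983), Prkrip1 (0.103), Rad9b (0.117) and Tlcd3b (0.118). The median over all other genes was 0.315. Rps19 averaged 7.48 ± 0.01 in knockout and 7.13 ± 0.11 in wild-type muscle (SD, n = 4 each), and in both Rps19 and Cntfr wild type 2 was the lowest array. The 5 genes were chosen for likeness to Cntfr, itself picked for its rise. Their higher values in knockouts follow from that choice and carry no test. Of these 5 genes 1 was still among the 5 nearest without wild type 2. Among the receptor genes Stat3 was nearest to Cntfr, at 0.280, and Lifr farthest, at 0.397. A gene that hardly varies also comes near by this measure. Stat3 differed between the groups by only 0.01, so its place does not mean a shared pattern.

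**Figure D5:**
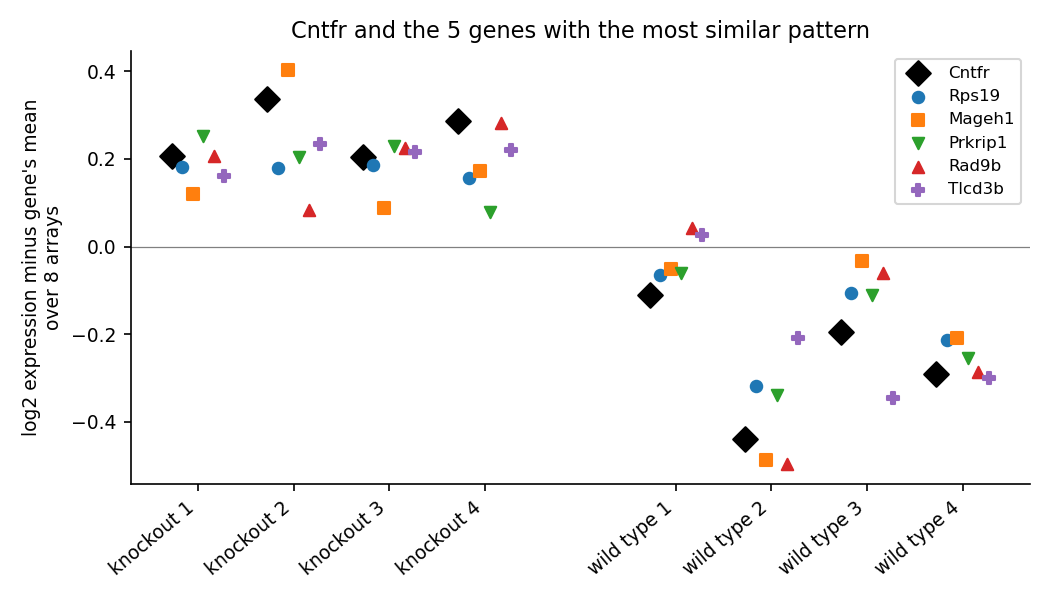
Log2 expression minus the gene's own mean over 8 arrays (vertical axis) of Cntfr (black diamonds) and the 5 genes nearest to it, for 4 knockout arrays (left) and 4 wild-type arrays (right). Cntfr and Rps19 lie above 0 in all knockouts and below 0 in all wild types, with the lowest values in wild type 2. Rps19 was chosen for this likeness, so nothing is read from its separation.

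Relations between receptor genes were computed for 5 pairs over 8 arrays, none with Cntfr. Stat3 and its target Socs3 had no relation that passed (Pearson's r = -0.18, exact two-sided permutation p = 0.667, adjusted p = 0.957; Spearman's rho = -0.07, p = 0.882, adjusted p = 0.977), and r was -0.03 without the 2 arrays farthest from the median and -0.17 within genotypes. Il6st and Lifr had r = 0.64 (exact permutation p = 0.0883, adjusted p = 0.221; rho = 0.48, p = 0.243, adjusted p = 0.608) and 0.59 within genotypes. That relation rests on wild types 2 and 4, since r was -0.07 without them. Osmr against the fibroblast mean (r = 0.04, exact permutation p = 0.934, adjusted p = 0.957; rho = 0.02, p = 0.977, adjusted p = 0.977) and Lifr against the endothelial mean (r = -0.02, p = 0.957, adjusted p = 0.957; rho = 0.17, p = 0.703, adjusted p = 0.977) did not pass either. Without the 2 farthest arrays r was 0.06 and -0.03. Il6ra against the macrophage mean had r = -0.73 (exact permutation p = 0.0440, adjusted p = 0.220; rho = -0.86, p = 0.0107, adjusted p = 0.0536), which missed the threshold after adjustment, and r was -0.83 without the 2 farthest arrays, knockouts 3 and 4. Both measures separate the genotypes, the permutations ran over all 8 arrays, and within genotypes r was -0.43, with no test of its own. The macrophage list was also chosen with earlier results of these data known.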

How the data were processed

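Values on the log2 scale for 35556 transcript clusters came as 1 deposited table. Per the submitters' processing notes, the tools were RMA, which corrects background, normalizes and summarises probes, and Affymetrix Expression Console; settings, version and build are not given in the sources used here. RMA compresses differences of dim transcripts. Groups follow the titles, with no depth to give for arrays. Of the clusters, 21789 had 1 symbol in the platform annotation, 1621 several and 12146 none; 21698 of those with 1 symbol matched RefSeq by Entrez number. The brightest cluster stood for each gene, without a filter. Knockout and wild type were compared over all 19938 genes with lmFit and eBayes of limma 3.58.1 (R 4.3.3), genotype only, Benjamini-Hochberg adjusted, after tests on simulated data. Intervals use 12.3 degrees of freedom. Named genes were all members, Kat2a, up to 4 genes per pathway list by smallest p and 5 genes most like Cntfr. Musk, Chrna1, Gadd45a, Actc1, Il6, Klf4 and Pim1 were added later. The members and lists were chosen with earlier results of these data known. Of 6 planned relations, that of Cntf was not run. Alternatives covered normalization, dim genes, clusters, variance model, array weights, the replicate number and left-out arrays. Deviations of same-numbered arrays from their group means correlated weakly (r from -0.10 to 0.22), and 2 of 4 knockouts correlated best with their own number. Figures used matplotlib 3.10.9.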

Additional observations from a re-analysis of the deposited data

Results flagged for a closer look

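Of 102 groups of 4 arrays examined for the named genes and lists, 4 held an array far from the other 3 of its group, and chance flags about 1 in 20 groups. Pias3 measured 5.49 in knockout 2, the nearest other knockout being at 5.30. Gpc1 measured 7.96 in knockout 3, below the nearest other knockout at 8.17. Irf1 measured 5.58 in knockout 3, above the nearest other knockout at 5.46. The mean of the ligand list was 4.14 in wild type 2, below the nearest other wild type at 4.26.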

How the results depend on the processing

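The Cntfr difference lay between 0.45 and 0.57 in 19 alternatives, and nothing is read from this, since Cntfr was picked for its separation and most alternatives cannot make groups overlap. Over the same alternatives Il6ra lay between -0.25 and -0.15 with limma adjusted p values from 0.637 to 0.997, and its groups overlapped after cyclic loess. No member tested passed in any of these alternatives. The count of 3 genes called by limma over all genes was 11 without the dimmest 25% of genes, 13 without the dimmest 50%, 17 with an intensity trend and robust prior, 16 at an adjusted p of 0.10, 1 without wild type 2 and knockout 4, 0 over all deposited clusters (more features tested) and 0 to 5 when 1 array was left out. With the replicate number as a block it was 0, Kat2a then having a limma adjusted p of 0.113, and differences are as without the block by construction; the numbers pair no animals in the labels, 1 of 4 same-number correlations was above 0.1, and 2 of 4 knockouts correlated best with their own number. Differences near 0 changed sign. Without wild type 2 and knockout 4, Il6st was 0.00112, Stat3 -0.00608, Il11 -0.0126, Lepr -0.00894 and Jak1 0.00285. With 1 array left out, Stat3 ranged from -0.0152 to 0.0626, Socs3 from -0.187 to 0.0436, Osmr from -0.202 to 0.0116, Il11 from -0.0107 to 0.164 and Jak1 from -0.0983 to 0.0298. The cause of these changes was not tested. Of the 5 genes most like Cntfr, 1 to 5 remained. Dim ligands such as Il6 are limited by signal near the bottom of the range.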
